A study of Mus musculus with 26 samples.

Results

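Nuclear oxidative phosphorylation genes code for the protein subunits with which mitochondria turn reduced cofactors and oxygen into ATP, apart from the few subunits that the mitochondrial genome encodes. Complex I passes electrons from NADH, and complex II those from succinate, to ubiquinone. Complex III hands them to cytochrome c and complex IV to oxygen, and complex V, the ATP synthase, uses the proton gradient that results. Sensory neurons spend much ATP on ion pumping along long axons, and large myelinated afferents such as proprioceptors fire at high sustained rates.

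The members were the rows of the deposited RPKM table whose symbols begin with Nduf (series a, b, c, s or v), Sdh, Uqcr, Cox4 to Cox8 or Atp5, without pseudogene symbols. This gave 84 genes of the 38828 rows, with 37 in complex I, 4 in complex II, 8 in complex III, 17 in complex IV and 18 in complex V. Of these, 78 passed the filter on low counts and were tested, with 36, 4, 8, 14 and 16 in the 5 complexes. The rule used names alone and no measured value.

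RNA was sequenced from 26 libraries of fluorescent mouse dorsal root ganglion neurons, sorted from adults of postnatal day 23 or older. Proprioceptors (PVIRESCre with the Ai14 reporter) are the muscle afferents, and low-threshold mechanoreceptors (LTMRs) are touch afferents of the skin. Aβ RA-LTMRs (rapidly adapting) carried Npy2r-GFP. Aβ SA1-LTMRs (slowly adapting type 1) and Aβ Field-LTMRs both carried TrkCCreER with a Ret allele that expresses GFP, with tamoxifen at 3 mg per day on E12.5 (embryonic day) for SA1 and at 2 mg per day from postnatal day 13 or 14 for Field. Aδ-LTMRs carried TrkBCreER with Ai14, with tamoxifen at 2 mg per day on embryonic days 12 to 13. C-LTMRs carried ThCreER with Ai14, with tamoxifen at 2 mg per day from postnatal day 13 or 14. Peptidergic nociceptors carried CGRP-GFP and nonpeptidergic nociceptors MrgD-EGFP, and for these, the Aβ RA-LTMRs and the proprioceptors the labels give no tamoxifen. Aβ RA-LTMRs had 5 libraries and every other subtype 3. Each library pooled the ganglia of multiple mice and combined several sorts, so p-values measure the spread between pools. Proprioceptors came from thoracic ganglia and the other subtypes from all axial levels, so level and subtype cannot be told apart there.

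Libraries held 10706522 to 66309214 counts, of which the members took 0.478% to 1.72%. Of the genes behind the labels, Mrgprd, Calca, Th and Pvalb were highest in the subtypes named for them and Ntrk2 was highest in Aδ-LTMRs, whereas Npy2r was higher in peptidergic nociceptors (mean 52.9 counts scaled to library size, CPM) than in the Aβ RA-LTMRs sorted by it (20.4 CPM). Some libraries stood apart from their own group before any comparison. Aδ-LTMR libraries 1 and 2 had mapping rates of 61.4% and 74.5%, against 93.8% in library 3. Aβ RA-LTMR library 5 had 45.7% exonic reads, the lowest share of all, and the members were higher in it than in its group. All 3 Aδ-LTMR libraries carried RNA of endothelial cells, described with the Aδ-LTMRs. Bulk libraries give relative RNA levels, in which fewer cells of a type and less RNA per cell cannot be told apart.

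Promoter sequences are shown for members of each complex that marked the main contrasts, and were chosen after their values were seen. They are the 250 bases before the gene start on the gene's own strand, read 5′ to 3′ from RefSeq promoters of GRCm38.p6, and capitals mark the matches to 2 short motifs. These were CATGCGC, from the recognition sequence of NRF1, and CCGGAAG, from that of the ETS family to which GABPA belongs. Both factors are known activators of respiratory chain genes. Ndufa11 is an accessory subunit of complex I (chr17:56717512-56717761, plus strand), Sdhb the iron-sulphur subunit of complex II (chr4:140961021-140961270, plus) and Uqcr11 a small subunit of complex III (chr10:80406822-80407071, minus). Cox5b (chr1:36691237-36691486, plus), Cox5a (chr9:57520982-57521231, plus) and Cox6b2 (chr7:4753095-4753344, minus) belong to complex IV, and Atp5k is the e subunit of the ATP synthase (chr5:108434400-108434649, minus).
Ndufa11: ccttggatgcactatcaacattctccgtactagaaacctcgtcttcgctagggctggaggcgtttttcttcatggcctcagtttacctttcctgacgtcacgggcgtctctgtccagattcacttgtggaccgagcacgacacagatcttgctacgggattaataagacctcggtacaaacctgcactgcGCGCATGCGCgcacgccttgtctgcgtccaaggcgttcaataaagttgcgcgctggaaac
Sdhb: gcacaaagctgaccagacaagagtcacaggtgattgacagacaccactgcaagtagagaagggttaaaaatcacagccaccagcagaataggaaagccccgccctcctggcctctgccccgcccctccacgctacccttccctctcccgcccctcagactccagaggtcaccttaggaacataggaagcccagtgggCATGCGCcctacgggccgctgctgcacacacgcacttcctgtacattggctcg
Uqcr11: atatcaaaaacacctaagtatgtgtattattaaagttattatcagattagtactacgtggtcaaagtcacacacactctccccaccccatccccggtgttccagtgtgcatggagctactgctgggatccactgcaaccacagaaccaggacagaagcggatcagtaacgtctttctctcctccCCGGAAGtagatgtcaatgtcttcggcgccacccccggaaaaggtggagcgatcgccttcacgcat
Cox5b: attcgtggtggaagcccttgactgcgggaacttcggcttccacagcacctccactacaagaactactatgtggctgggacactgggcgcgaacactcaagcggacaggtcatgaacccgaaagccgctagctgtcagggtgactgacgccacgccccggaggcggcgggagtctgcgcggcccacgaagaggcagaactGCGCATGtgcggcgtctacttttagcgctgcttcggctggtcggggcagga
Atp5k: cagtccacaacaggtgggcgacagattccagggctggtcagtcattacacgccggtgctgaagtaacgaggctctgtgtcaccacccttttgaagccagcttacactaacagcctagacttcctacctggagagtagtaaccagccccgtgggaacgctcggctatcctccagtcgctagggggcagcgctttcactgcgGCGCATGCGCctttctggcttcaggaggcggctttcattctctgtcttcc
Cox5a: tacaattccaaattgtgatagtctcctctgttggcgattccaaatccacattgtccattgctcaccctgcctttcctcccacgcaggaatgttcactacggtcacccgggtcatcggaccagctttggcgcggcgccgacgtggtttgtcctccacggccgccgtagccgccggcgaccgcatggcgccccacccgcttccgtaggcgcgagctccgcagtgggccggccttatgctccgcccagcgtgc
Cox6b2: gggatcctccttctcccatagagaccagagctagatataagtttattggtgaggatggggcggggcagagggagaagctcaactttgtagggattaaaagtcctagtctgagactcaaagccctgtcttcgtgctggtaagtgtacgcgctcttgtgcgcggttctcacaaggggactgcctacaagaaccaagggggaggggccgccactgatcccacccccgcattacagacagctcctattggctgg
Ndufa11 and Atp5k each held the NRF1 letters on both strands, overlapping, 57 and 60 bases before the start in Ndufa11 and 47 and 50 bases before it in Atp5k. Sdhb held them 53 bases before the start, and Cox5b on the other strand 51 bases before it. Uqcr11 held the ETS letters 66 bases before its start. Cox5a and Cox6b2 held neither. AAGGTCA, a site of the estrogen-related receptors, and AAGATGG, from the YY1 sequence, were searched as well and lay in none of the 7 stretches.

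The motifs were searched on both strands over the 300 bases from 250 before to 50 after the start. A gene counted if any of its listed promoters held the letters. CATGCGC lay in 13 of the 66 members with a listed promoter (19.7%), against 4.41% of all 27025 genes with one. CCGGAAG lay in 16 members (24.2%), against 9.93% of these genes. AAGGTCA lay in 8 members (12.1%), against 5.38%, and AAGATGG in 10 (15.2%), against 7.28%. At least one of the 4 lay in 35 members (53.0%) and in 24.0% of all genes with a listed promoter. A match is a description of letters and not of bound factors.

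The members spanned a wide range of level, with catalytic and small subunits at the top. Levels are compared between genes here as RPKM, which is scaled to gene length. The catalytic β subunit of the ATP synthase, Atp5b, had the highest mean over subtypes, 3284 RPKM. The most abundant members of the other complexes were Cox7b of complex IV at 784 RPKM, Ndufa4 of those named for complex I at 531 RPKM and Uqcrq of complex III at 503 RPKM. Ndufa4 is now known as a complex IV subunit. Among the members of complex II, Sdha, the flavoprotein that oxidizes succinate, led at 104 RPKM. The median member stood at 94.2 RPKM in complex I, 76.1 in complex II, 146 in complex III, 138 in complex IV and 151 in complex V.

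The 6 members that failed the filter had few counts in nearly every library, and 3 of them are tissue forms. Cox8b, a muscle form, had 39 counts over all 26 libraries and Cox8c, a testis form, had 6, all in C-LTMR library 3. Ndufa4l2, a gene known for its induction by low oxygen, had 31 counts. Cox6a2, the heart and muscle form of Cox6a1, had 108 counts, 69 of them in Aδ-LTMR library 3. Atp5g2, the third gene for the c subunit of the ATP synthase, had 66, and Atp5l2, which GENCODE lists as a processed pseudogene, had 97. The ubiquitous Cox4i1 has counts but no row of RPKM and was therefore not a member. It averaged 716 ± 216 CPM in proprioceptors and 84.3 ± 9.61 CPM in peptidergic nociceptors (SD, n = 3 each).

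Across the 8 subtypes, nearly every member differed, and the subtypes fell into 3 levels. Proprioceptors were highest, the A-fibre LTMRs and nonpeptidergic nociceptors intermediate, and C-LTMRs and peptidergic nociceptors lowest. In an F test over the 8 subtypes (edgeR quasi-likelihood, Benjamini-Hochberg adjusted p under 0.05), 77 of 78 members were called, beside 78.3% of the 17411 genes tested. The exception was Cox8a, a ubiquitous complex IV subunit (adjusted p = 0.0739). Of the 78 members, 69 had their highest mean in proprioceptors, 61 their lowest in peptidergic nociceptors and 13 in C-LTMRs.

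As a summary of each library, log2 CPM was centred per gene and the median taken over the members. Libraries of proprioceptors averaged 1.04 ± 0.42 (SD, n = 3), those of Aβ RA-LTMRs 0.18 ± 0.49 (n = 5), of Aβ SA1-LTMRs 0.18 ± 0.23, of Aβ Field-LTMRs -0.07 ± 0.52 and of Aδ-LTMRs 0.12 ± 0.63 (n = 3 each). C-LTMRs averaged -0.76 ± 0.083, peptidergic nociceptors -1.06 ± 0.10 and nonpeptidergic nociceptors 0.12 ± 0.084 (n = 3 each). The 5 A-fibre subtypes therefore varied far more from library to library than the other 3 did. Proprioceptor library 1 (0.56) was below Aβ RA-LTMR library 5 (0.95) and Aδ-LTMR library 3 (0.82), so the proprioceptor and LTMR libraries overlapped.

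**Figure D1:**
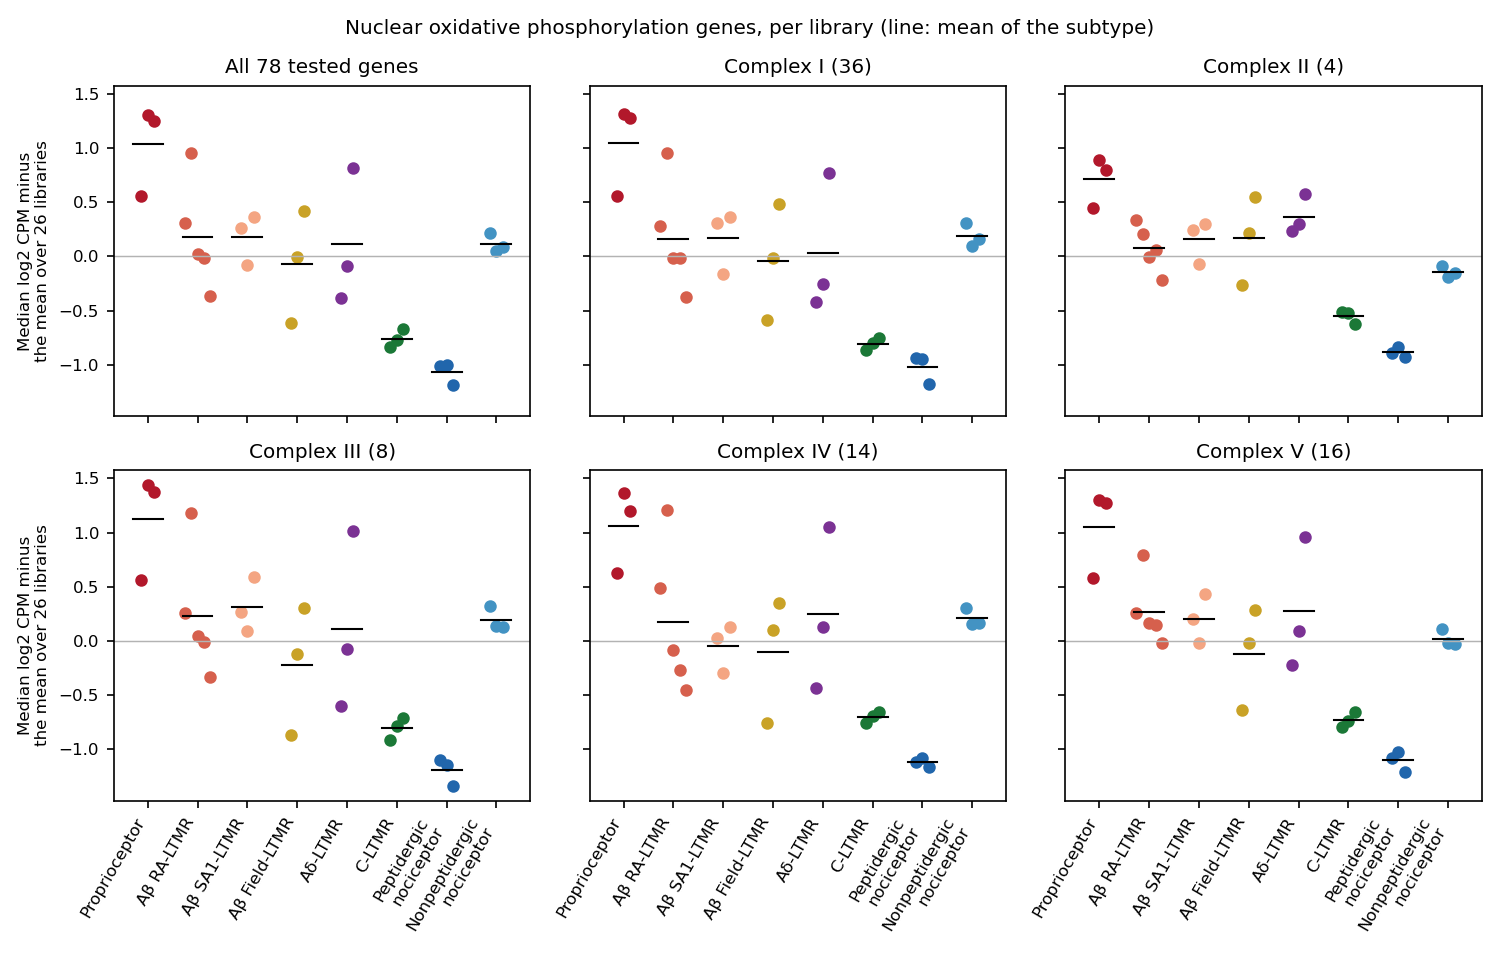
Median of centred log2 CPM in each of the 26 libraries, by subtype, with a line at the mean of each subtype. Panels show the 78 tested members together and the members of each complex. Over the 78 members, proprioceptors averaged 1.04 and peptidergic nociceptors -1.06, while nonpeptidergic nociceptors, at 0.12, lay among the A-fibre LTMRs.

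Tests of all 28 pairs of subtypes gave the same picture, with p-values adjusted over the 17411 genes in each pair and all comparisons drawn from the same libraries. The 4 A-fibre LTMR subtypes differed from one another in 0 to 5 members. Aβ RA-LTMRs had 3 members higher and 1 lower than Aβ Field-LTMRs (beside 7.48% and 10% of all genes), 1 lower than Aβ SA1-LTMRs (6.29%), and 1 higher and 1 lower than Aδ-LTMRs (7.32% and 12.9%). Aβ SA1-LTMRs had 2 higher and 1 lower than Aβ Field-LTMRs (5.11% and 7.71%) and 1 higher and 4 lower than Aδ-LTMRs (11.1% and 17.2%), and between Aβ Field- and Aδ-LTMRs none was called.

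The nonpeptidergic nociceptors differed from these LTMRs in few members and in both directions. Relative to them, 12 members were higher and 3 lower in Aβ RA-LTMRs (beside 24.8% and 25.1% of all genes), and 9 higher and 3 lower in Aβ SA1-LTMRs (22.6% and 23.4%). In Aβ Field-LTMRs 4 were higher and 9 lower (21.5% and 20.2%), and in Aδ-LTMRs 11 higher and 3 lower (24.0% and 19.8%). A p that misses the threshold does not show that levels are equal, and the LTMR libraries spread widely.

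Every call of these LTMRs and of proprioceptors against peptidergic nociceptors and C-LTMRs, and of proprioceptors against nonpeptidergic nociceptors, was higher in the A-fibre subtype. Relative to peptidergic nociceptors, 69 members were higher in Aβ RA-LTMRs, 62 in Aβ SA1-LTMRs, 53 in Aβ Field-LTMRs and 63 in Aδ-LTMRs, beside 21.0%, 19.2%, 12.8% and 14.7% of all genes. Relative to C-LTMRs, 61 were higher in Aβ RA-LTMRs, 47 in Aβ SA1-LTMRs, 27 in Aβ Field-LTMRs and 49 in Aδ-LTMRs, beside 21.8%, 19.5%, 14.8% and 15.9%. Proprioceptors had 74 members higher than C-LTMRs, 73 higher than peptidergic and 44 higher than nonpeptidergic nociceptors, beside 23.4%, 22.3% and 23.8%.

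Centred levels of the single members showed how widely the order of subtypes was shared. The correlation of each member with the median of all others over the 26 libraries was above 0.8 (Pearson r) for 62 of 78, as a description of libraries that share depth and preparation. Uqcrh, the hinge subunit of complex III, was at 0.98 and Sdhb at 0.97. Only 6 members were under 0.5, namely Cox4i2 (0.03), Cox7b2 (0.20), Cox6b2 (0.38), Uqcrb (0.39), Cox7a1 (0.48) and Atp5s (0.48). Of these 6, 4 are tissue forms of complex IV subunits at low level, and Atp5s is a factor named with the ATP synthase rather than one of its subunits.

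**Figure D2:**
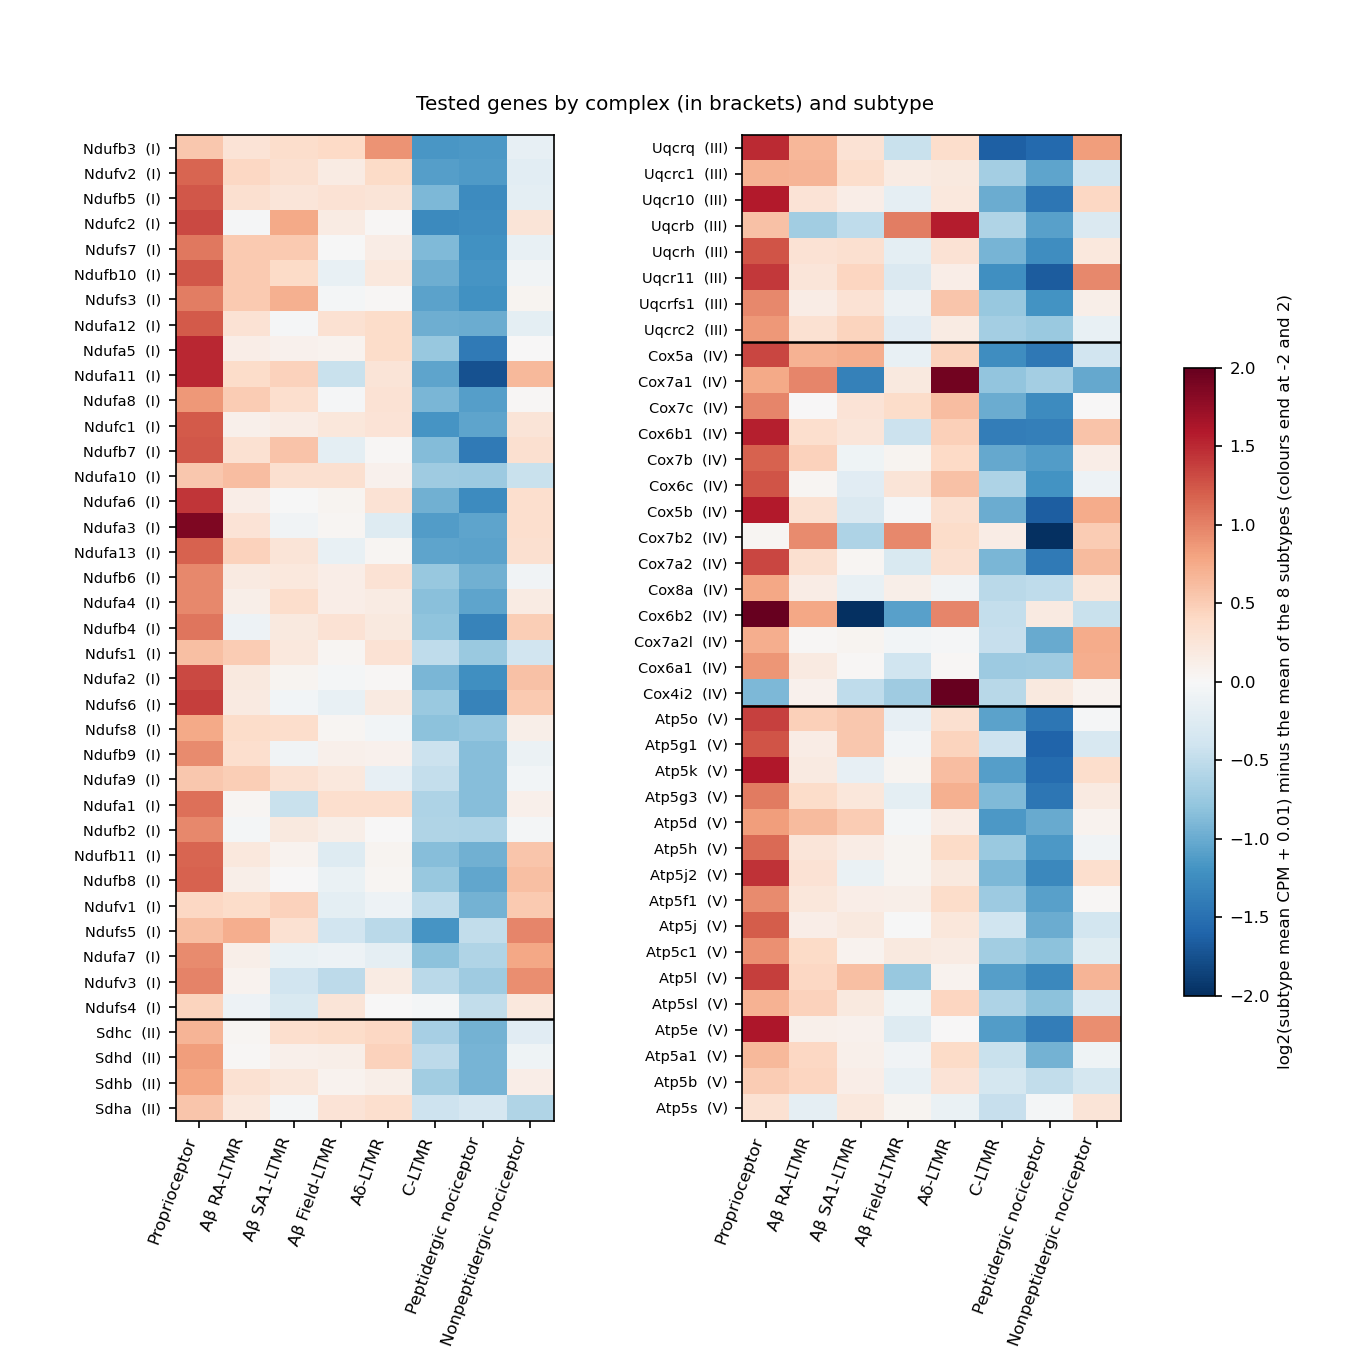
Mean level of 77 of the 78 tested members in the 8 subtypes, as log2(mean CPM + 0.01) centred per gene, with genes in rows grouped by complex and the colour scale ending at 2 in each direction. Most rows are highest in the proprioceptor column and lowest in the peptidergic nociceptor column, with exceptions among the complex IV tissue forms.

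Taken as means of subtypes, the 5 A-fibre subtypes had higher levels of members in all 5 complexes than nociceptors and C-LTMRs. The mean of the 5 subtypes was set against the mean of the 3, with subtypes weighted equally. These means hide how near the A-fibre LTMRs lay to nonpeptidergic nociceptors. Against those, the median log2 fold change was 0.11 in Aβ RA-, 0.06 in Aβ SA1-, -0.08 in Aβ Field- and 0.15 in Aδ-LTMRs. In proprioceptors it was 0.92. Of 78 members, 68 rose and none fell in A-fibre subtypes (69 at an unadjusted p under 0.05, all of positive sign), beside 28.4% of all genes called higher and 28.1% lower. With a log2 fold change of at least 1 required as well, 34 rose, beside 15.6%. All 78 fitted differences were positive, with a median log2 fold change of 0.97 against 0.02 for all genes. In complex I, 32 of 36 rose (median 0.94), in complex II 4 of 4 (0.80), in complex III 8 of 8 (1.05), in complex IV 9 of 14 (1.00) and in complex V 15 of 16 (0.94).

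Within complex I, all 7 nuclear core subunits, which carry the redox centres, rose, as did 25 of the 29 accessory subunits. Ndufv2, an iron-sulphur core subunit, averaged 75.03 CPM in A-fibre subtypes and 30.9 CPM in nociceptors and C-LTMRs (log2 fold change 1.30, SE 0.14, adjusted p = 1.49e-08). The accessory subunit Ndufb3 had a log2 fold change of 1.31 (SE 0.18, adjusted p = 8.42e-07). The smallest called change in complex I was that of Ndufv1, the NADH-binding core subunit, at 102 CPM in A-fibre subtypes and 77.4 CPM in the others (log2 fold change 0.50, SE 0.13).

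All 4 subunits of complex II rose. Sdha stood at 343, 427 and 381 CPM in proprioceptors, at 303, 336, 326, 242 and 303 CPM in Aβ RA-LTMRs, and at 230.0, 249.7 and 282 CPM in Aβ SA1-LTMRs. It stood at 290.2, 272 and 379.6 CPM in Aβ Field-LTMRs and at 281, 335 and 376 CPM in Aδ-LTMRs. C-LTMRs had 197, 185 and 204 CPM, peptidergic nociceptors 210.4, 209 and 200.3 CPM, and nonpeptidergic nociceptors 198, 159 and 162 CPM. Every A-fibre library was above every other library, and the difference was a log2 fold change of 0.72 (SE 0.08, adjusted p = 3.51e-08). Ndufs1, a core subunit of complex I, and Ndufa10, an accessory one, were the other 2 members without overlap, beside 2.85% of all genes. Sdhc, which anchors the complex in the membrane, had a log2 fold change of 0.98 (SE 0.11) and Sdhb one of 0.80 (SE 0.15).

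In complex III, Uqcrq led with a log2 fold change of 1.26 (SE 0.22), and Uqcrc1, a core protein of the complex, had 1.12 (SE 0.13, adjusted p = 8.03e-08). The largest change of any member was that of Cox5a, a subunit of the complex IV core assembly. Cox5a stood at 109.7, 242 and 236 CPM in proprioceptors, at 92.5 to 236 CPM in Aβ RA-LTMRs with a median of 101, at 108, 128 and 151 CPM in Aβ SA1-LTMRs, at 55.6, 56.4 and 98.4 CPM in Aβ Field-LTMRs, and at 46.4, 51.9 and 219 CPM in Aδ-LTMRs. It stood at 34.2, 34.1 and 29.7 CPM in C-LTMRs, at 29.6, 30.7 and 26.1 CPM in peptidergic nociceptors and at 66.6, 56.9 and 54.8 CPM in nonpeptidergic nociceptors. The A-fibre libraries were on the whole higher (log2 fold change 1.64, SE 0.23, adjusted p = 1.70e-06), but Aβ Field-LTMR libraries 1 and 2 were within the range of nonpeptidergic nociceptors and Aδ-LTMR libraries 1 and 2 below it. Cox5a shares 10.5% of its 50-base windows with other genes, and how far this affects its count was not tested.

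In the ATP synthase, all 5 subunits of the catalytic F1 head, all 7 of the stalk and membrane part and both tested genes of the c ring rose. Atp5b, the most abundant member, had 2718 CPM in A-fibre subtypes and 1738 CPM in the others (log2 fold change 0.63, SE 0.08, adjusted p = 5.26e-07). Atp5o, the stalk subunit that joins head and membrane part, had 140 CPM in A-fibre subtypes and 56.3 CPM in the others (log2 fold change 1.36, SE 0.22, adjusted p = 8.79e-06). It shares 34.9% of its windows with other genes. Atp5g1, a gene of the c ring, had 57.6 CPM in A-fibre subtypes and 24.9 CPM in the others (log2 fold change 1.24, SE 0.15).

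The 10 members that did not pass in this comparison were Atp5s, Ndufs4, Ndufv3, Ndufa7, Ndufs5, Cox6a1, Cox8a, Cox4i2, Cox6b2 and Cox7b2. Cox6a1 had a log2 fold change of 0.38 and Cox8a one of 0.44. Both are the ubiquitous forms of their subunits and were high in nonpeptidergic nociceptors, Cox6a1 at 309 ± 19.3 CPM and Cox8a at 131 ± 2.41 CPM (SD, n = 3).

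Markers of satellite glia, the cells that wrap these neurons, moved with the split. All 12 listed markers were called higher in A-fibre subtypes (median log2 fold change 1.30), none was at 0 in any library, and their mean log2 CPM ran from 5.61 to 7.73 in A-fibre libraries and from 4.17 to 6.59 in the others. With the glia score of each library as a covariate, 15 members were called, and the median was 0.84. The part of glial RNA in the result was not tested further.

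**Figure D3:**
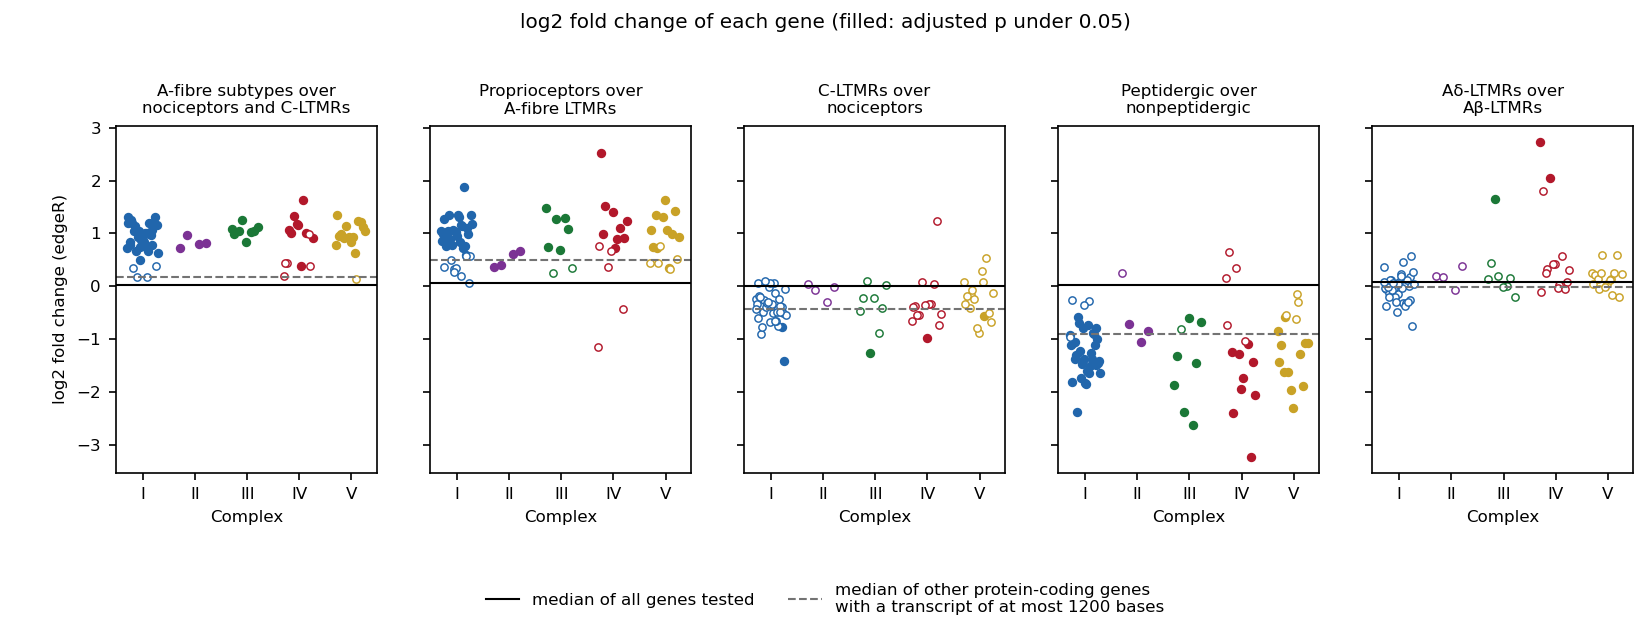
Log2 fold change of each tested member in 5 comparisons, in columns by complex, with filled points for adjusted p under 0.05, a solid line at the median of all genes and a dashed line at the median of other protein-coding genes with transcripts of up to 1200 bases. Most members lie above both lines in A-fibre subtypes and proprioceptors and mostly below both in peptidergic nociceptors.

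Among the A-fibre subtypes, proprioceptors had higher levels of most members than the LTMRs. Of 78 members, 57 rose in proprioceptors and none fell (67 at an unadjusted p under 0.05), beside 16.2% of all genes called higher and 13.8% lower, and 30 rose by a log2 fold change of at least 1, beside 9.25%. The median log2 fold change was 0.90, against 0.06 for all genes. By complex, 27 of 36 rose in complex I (median 0.95), 4 of 4 in complex II (0.50), 6 of 8 in complex III (0.91), 9 of 14 in complex IV (0.91) and 11 of 16 in complex V (0.84).

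The accessory and the core subunits of complex I stood unequally here, as counts and medians without a test between them. Of the accessory subunits 24 of 29 rose (median 1.02), and of the core subunits 3 of 7 (median 0.57). In the ATP synthase, all 7 stalk and membrane subunits rose (median 1.07), against 3 of 5 subunits of the F1 head (median 0.52). Ndufa3, an accessory subunit of the complex I membrane arm, averaged 98.2 CPM in proprioceptors and 27.1 CPM in A-fibre LTMRs (log2 fold change 1.87, SE 0.35, adjusted p = 0.000272). Atp5e, the small ε subunit of the F1 head, averaged 165 CPM in proprioceptors and 53.6 CPM in A-fibre LTMRs (log2 fold change 1.63, SE 0.37). The smallest changes called were those of Atp5b (log2 fold change 0.34), Sdha (0.36) and Sdhc (0.40). Without proprioceptor library 2 these calls were lost (adjusted p = 0.147 for Atp5b, 0.184 for Sdha and 0.190 for Sdhc). Of the 26 omissions of a single library, 21 ended the call of Sdhc, 7 that of Atp5b and 2 that of Sdha.

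Ndufa11 showed the spread behind these values. It had 107, 280.1 and 274 CPM in proprioceptors, against 82.4, 80.6, 57.2, 78.8 and 205 CPM in Aβ RA-LTMRs, 39.0, 54.4 and 77.6 CPM in Aβ Field-LTMRs, 91.4, 97.9 and 133 CPM in Aβ SA1-LTMRs, and 35.8, 42.5 and 199.97 CPM in Aδ-LTMRs. Proprioceptor libraries 2 and 3 were the highest, and library 1 fell within the LTMR range. Only 5 members had all proprioceptor libraries above all LTMR libraries, namely Ndufb2, Ndufa12, Ndufc1, Atp5h and Atp5j, beside 4.44% of all genes. The count of 57 became 32 without proprioceptor library 2, 34 without library 3 and 13 once read-length class was a covariate.

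Against single subtypes, proprioceptors were higher in 55 members than Aβ Field-LTMRs, in 35 than Aβ RA-LTMRs, in 33 than Aβ SA1-LTMRs and in 25 than Aδ-LTMRs, beside 14.5%, 9.56%, 14.5% and 9.86% of all genes. Cox4i2 was the 1 member lower in proprioceptors than in Aδ-LTMRs, beside 13.9%. Of the 12 satellite glia markers, 8 were also higher in proprioceptors than in A-fibre LTMRs (median 0.84), and a fit with the glia score as covariate called 9 members. Of the 10 listed markers of skeletal and heart muscle 5 could be tested, none was called in this comparison, and their highest value in any library was 3.01 CPM (Acta1).

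Peptidergic nociceptors had lower levels of most members than nonpeptidergic nociceptors. Of 78 members, 63 fell and none rose in peptidergic nociceptors, beside 18.5% of all genes called lower and 19.7% higher, and the median log2 fold change was -1.17, against 0.03 for all genes. A log2 fold change of at most -1 was met as well by 48 members, beside 10.9% of all genes. For 72 members, every peptidergic library was below every nonpeptidergic one, beside 33.6% of all genes. By complex, 32 of 36 fell in complex I (median -1.25), 3 of 4 in complex II (-0.78), 7 of 8 in complex III (-1.39), 9 of 14 in complex IV (-1.26) and 12 of 16 in complex V (-1.10).

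The largest changes were those of Cox7b2, described with the tissue forms of complex IV, and of Uqcr11, Cox5b and Ndufa11, whose longest annotated transcripts have 605, 865 and 918 bases. Uqcr11 had 10.5, 10.5 and 8.1 CPM in peptidergic nociceptors, against 61.7, 58.2 and 59.1 CPM in nonpeptidergic nociceptors. The groups were far apart, with little spread within each. The SE draws on the spread within all 8 subtypes (log2 fold change -2.62, SE 0.50, adjusted p = 0.000182). Cox5b, a complex IV subunit, had 9.94, 10.4 and 8.45 CPM in peptidergic nociceptors, against 52.6, 48.1 and 51.1 CPM in nonpeptidergic nociceptors (log2 fold change -2.40, SE 0.40, adjusted p = 3.83e-05). It shares 25.9% of its windows with another gene. Ndufa11 had 24.6, 24.5 and 20.6 CPM in peptidergic nociceptors, against 121, 123 and 120.1 CPM in nonpeptidergic nociceptors (log2 fold change -2.39, SE 0.51). Atp5k had 16.9, 16.8 and 13.5 CPM in peptidergic nociceptors, against 61.8, 55.5 and 58.2 CPM in nonpeptidergic nociceptors (log2 fold change -1.89, SE 0.45).

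The other 3 subunits of complex II fell and Sdha did not pass. Sdhb had 32.4, 33.8 and 29.6 CPM in peptidergic nociceptors, against 75.2, 60.9 and 62.8 CPM in nonpeptidergic nociceptors. Sdha had a log2 fold change of 0.26 (SE 0.16, adjusted p = 0.202), with every peptidergic library above every nonpeptidergic one, beside 34.3% of all genes. Of the 15 members that did not pass, 8 had a longest transcript over 1200 bases, such as Atp5b (1916 bases), Ndufa10 (2020) and Ndufs1 (2661), and 7 had one of up to 1200 bases, such as Cox7a1 (485), Cox6b2 (585) and Cox4i2 (733). Atp5b had a log2 fold change of -0.14 (SE 0.16), Ndufa10 one of -0.28 (SE 0.17) and Ndufs1 one of -0.36 (SE 0.21). Cox5a, at -1.05, missed the threshold as well (adjusted p = 0.0588). Among called members the smallest changes were those of Atp5c1, Ndufb2 and Uqcrc2 (log2 fold change -0.58, -0.59 and -0.60), and of the 26 omissions of a single library 13, 8 and 5 ended their calls.

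Transcript length moved with this contrast. Other protein-coding genes whose longest annotated transcript had up to 1200 bases (747 genes) had a median log2 fold change of -0.90 in peptidergic over nonpeptidergic nociceptors, and those over 3000 bases (7185 genes) one of 0.26. The 41 members up to 1200 bases had a median of -1.42 and the 37 longer members one of -1.05. Short genes were higher in proprioceptors over A-fibre LTMRs as well, with a median of 0.50 for other genes and 1.00 for members. In A-fibre subtypes over the others, other short genes had a median of 0.17 and short members one of 1.01. The share of length in these differences was not tested, and the longest annotated transcript need not be the one expressed. Satellite glia markers ran the other way from the members, with 10 of 12 higher in peptidergic nociceptors (median 1.81), and 8 members were called lower with the glia score as a covariate.

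**Figure D4:**
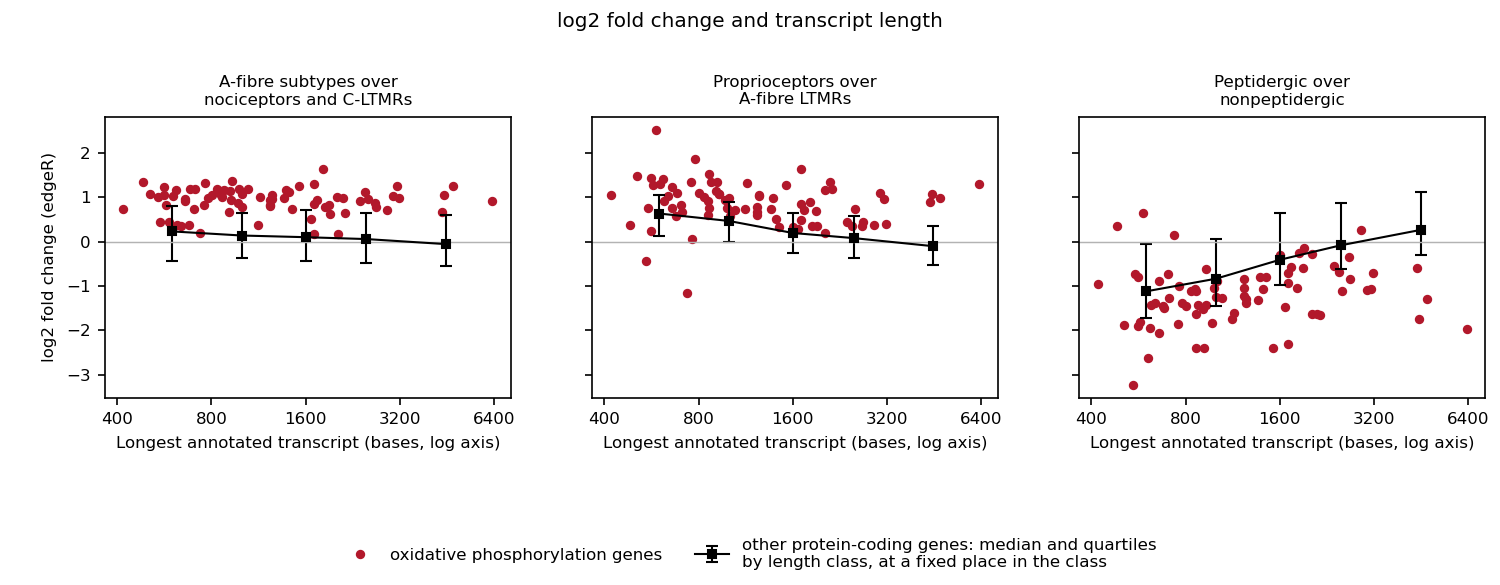
Log2 fold change of the tested members against the longest annotated transcript in bases, on a log axis, for A-fibre subtypes, proprioceptors and peptidergic nociceptors, with medians and quartiles of the other protein-coding genes by length class. In peptidergic over nonpeptidergic nociceptors the other genes run from a median of -1.12 up to 800 bases to 0.26 over 3000 bases, and the median of the members lies below theirs in each class.

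In C-LTMRs, 5 members fell and none rose relative to the mean of the nociceptor subtypes, beside 8.59% of all genes called lower and 11.9% higher, and the median was -0.35, against -0.00 for all genes. At an unadjusted p under 0.05 there were 13, and 2 passed with a log2 fold change of at most -1, beside 4.79% of all genes. The 5 were Ndufs5, an accessory subunit of complex I (log2 fold change -1.42, SE 0.44), Uqcrq (-1.26, SE 0.38), Cox6b1 (-0.99, SE 0.35), Ndufc2 (-0.78, SE 0.24) and Atp5s (-0.57, SE 0.16). Ndufs5 had 2.62, 2.46 and 3.21 CPM in C-LTMRs, against 4.73, 4.42 and 4.22 CPM in peptidergic and 13.5, 11.6 and 11.8 CPM in nonpeptidergic nociceptors. Ndufs5 and Atp5s were the 2 members with every C-LTMR library below every nociceptor library, beside 11.3% of all genes. Ndufs5 shares 31.1% of its windows with other genes. Transcript length moved with this comparison too. Other protein-coding genes had a median log2 fold change of -0.50 up to 800 bases and -0.41 from there to 1200 bases. Members of these lengths had -0.50 and -0.38. Over 3000 bases other genes had 0.12 and members -0.18. The share of length in the shift of the members was not tested.

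The mean of the nociceptors hides their distance from each other. C-LTMRs had 47 members lower than nonpeptidergic nociceptors and none higher (median -0.92), beside 17.2% of all genes called lower. Relative to peptidergic nociceptors, C-LTMRs had 1 member higher and none lower (median 0.24), beside 7.1% of all genes called higher. The call of Cox6b1 was lost in 17 of the 26 omissions of a single library, and those of the other 4 in 2 or 3. Leaving out C-LTMR library 3 took the count of 5 to 0, and leaving out library 1 or library 2 took it to 1.

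Between Aδ-LTMRs and the 3 Aβ-LTMR subtypes, most members did not pass, and the 3 that did were Cox4i2, Cox7a1 and Uqcrb. All 3 were higher in Aδ-LTMRs by a log2 fold change of over 1, beside 16.3% of all genes called higher and 8.92% lower, and 10.8% with the same fold, and 10 members had an unadjusted p under 0.05. The median log2 fold change was 0.08, against 0.07 for all genes. Uqcrb, a small subunit of complex III, had 33.6, 35.7 and 10.5 CPM in Aδ-LTMRs, against 4.71 to 7.12 CPM in Aβ RA-LTMRs (median 5.01), 4.5, 37.1 and 12.8 CPM in Aβ Field-LTMRs, and 5.5, 5.55 and 7.81 CPM in Aβ SA1-LTMRs. It was high in Aδ-LTMR libraries 1 and 2 and in Aβ Field-LTMR library 2, so the groups overlapped (log2 fold change 1.64, SE 0.35, adjusted p = 0.00125), and it shares 19.2% of its windows with other genes. Without Aδ-LTMR libraries 1 and 2 its log2 fold change was 0.28 (adjusted p = 0.862). Libraries 1 and 2 form a read-length class of their own. With that class as covariate, library 3 alone again set the Aδ-LTMR level, and the log2 fold change of Uqcrb was 0.20. With the glia score as covariate it was 1.10 (adjusted p = 0.0840).

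Library 3 set the direction of the Aδ-LTMR values. Without it the median of the members was -0.37 and 16 members were lower in Aδ-LTMRs. Without libraries 1 and 2, the median was 0.61 and 6 members were higher.

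Complex IV holds most of the subunits that come in tissue forms, and in every subtype the ubiquitous form was far more abundant. In proprioceptors, the subtype with the highest Cox6b2, a form known from testis, Cox6b2 stood at 3.27 RPKM and its partner Cox6b1 at 842 RPKM. In Aδ-LTMRs, Cox7a1, the heart and muscle form, stood at 12.6 RPKM and Cox7a2 at 199 RPKM. Cox7b2, a testis form, was at most 0.400 RPKM in any subtype mean, where the lowest mean of Cox7b was 373 RPKM.

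Cox6b2 had 0.272, 1.17 and 1.17 CPM in proprioceptors. Against these it had 0.166 to 0.624 CPM in Aβ RA-LTMRs (median 0.335), 0.254, 0 and 0 CPM in Aβ Field-LTMRs, 0, 0.0214 and 0.0954 CPM in Aβ SA1-LTMRs, and 0.119, 0.297 and 0.737 CPM in Aδ-LTMRs. Proprioceptor libraries 2 and 3 were above every LTMR library and library 1 was not (log2 fold change 2.52, SE 0.66, adjusted p = 0.00482). The call was lost once read-length class (adjusted p = 0.118) or the glia score (adjusted p = 0.691) was a covariate.

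Cox4i2, the form of Cox4i1 known from lung, had 0.533, 0.855 and 2.21 CPM in Aδ-LTMRs, against 0 to 0.749 CPM in Aβ RA-LTMRs (median 0.111), 0.138, 0.101 and 0.175 CPM in Aβ Field-LTMRs, and 0, 0.129 and 0.35 CPM in Aβ SA1-LTMRs. Only Aβ RA-LTMR library 5 reached the range of the Aδ-LTMRs (log2 fold change 2.74, SE 0.74, adjusted p = 0.00751). Cox7a1 had 1.22, 2.42 and 2.7 CPM in Aδ-LTMRs, against 0.314 to 2.15 CPM in Aβ RA-LTMRs (median 0.816), 0.0923, 1.12 and 0.678 CPM in Aβ Field-LTMRs, and 0.412, 0.0214 and 0.191 CPM in Aβ SA1-LTMRs (log2 fold change 2.04, SE 0.59, adjusted p = 0.0124). Its groups overlapped through the Aβ RA-LTMRs.

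Cell markers other than neuronal ones were also higher in Aδ-LTMRs than in Aβ-LTMRs. All 8 endothelial markers were called higher in Aδ-LTMRs than in Aβ-LTMRs (median 4.91), with a mean log2 CPM of 1.53 to 2.58 in Aδ-LTMR libraries and -3.38 to -0.73 in Aβ-LTMR libraries. Of 6 markers of pericytes and smooth muscle, 4 were higher (median 2.61), with 2.18 to 3.35 in Aδ-LTMR libraries and -0.96 to 0.48 in Aβ-LTMR libraries. In Aδ-LTMR libraries 1, 2 and 3, the endothelial mean was 2.58, 2.13 and 1.53. That of pericytes and smooth muscle was 3.35, 2.18 and 2.54. Cox4i2 and Cox7a1 were both lowest in library 1 and highest in library 3. The part of these cells in the values of Cox4i2 and Cox7a1 was not tested. The call of Cox4i2 was lost without Aδ-LTMR library 3 (adjusted p = 0.0971) and that of Cox7a1 without library 2 (adjusted p = 0.0650). Both were lost with the glia score as covariate (adjusted p = 0.149 for Cox4i2 and 0.114 for Cox7a1). Both were also lost once read-length class was a covariate, a fit in which library 3 alone sets the Aδ-LTMR level.

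Cox7b2 was the only tissue form called between the nociceptors. It had 0.016, 0 and 0.0349 CPM in peptidergic nociceptors, against 0.196, 0.0693 and 0.282 CPM in nonpeptidergic nociceptors (log2 fold change -3.23, SE 1.03, adjusted p = 0.0151). These rest on 1, 0 and 2 counts in peptidergic libraries and 11, 3 and 17 in nonpeptidergic ones, so the fold change depends on very few reads. The call was lost with no low-count filter (adjusted p = 0.0511), with the glia score as covariate (adjusted p = 0.230) and in 3 of the 26 omissions of a single library.

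**Figure D5:**
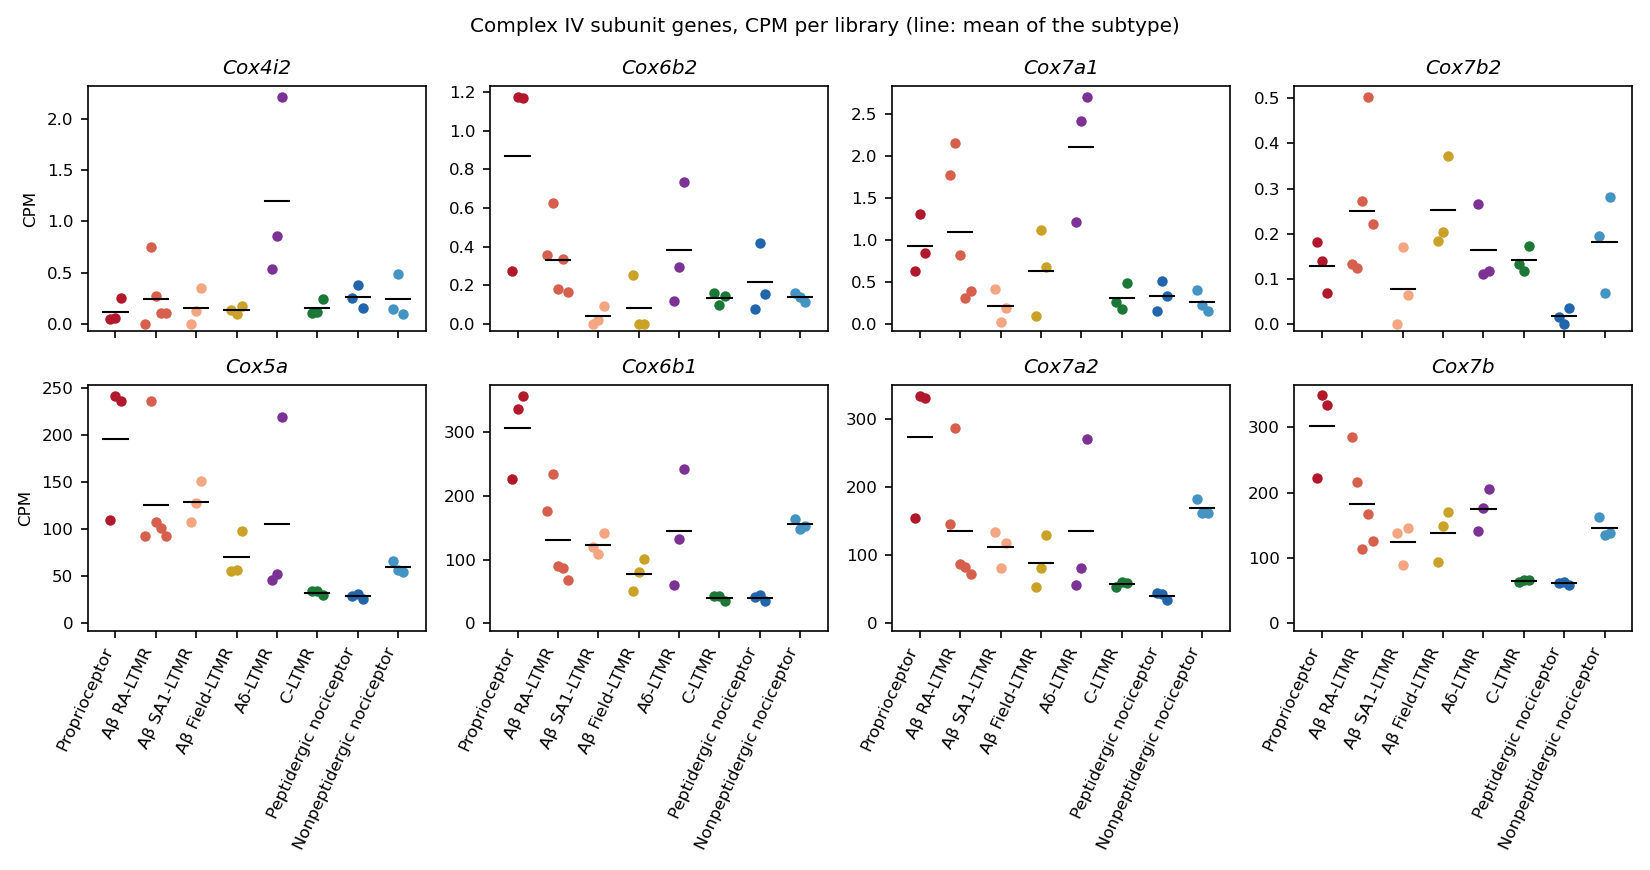
CPM of 8 complex IV genes in each of the 26 libraries, by subtype: the tissue forms Cox4i2, Cox6b2, Cox7a1 and Cox7b2, and Cox5a, Cox6b1, Cox7a2 and Cox7b. The tissue forms stay under 3 CPM and have their highest mean in Aδ-LTMRs (Cox4i2, Cox7a1), proprioceptors (Cox6b2) or Aβ Field-LTMRs (Cox7b2), while Cox5a reaches 242 CPM in proprioceptors.

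Genes that work with the members followed them in part. Their counts stand beside 28.4% of all genes called higher and 28.1% lower in A-fibre subtypes, and 19.7% higher and 18.5% lower in peptidergic nociceptors. Of the 5 nuclear genes of the same chain outside the name rule, 4 rose in A-fibre subtypes (Cyc1 and Cycs, the cytochromes c1 and c, Ndufab1 and Usmg5), and Atpif1, the ATP synthase inhibitor, had a log2 fold change of 0.01. Of 39 tested assembly factors, which help build the complexes, 23 were higher and 1 lower in A-fibre subtypes, and 19 were lower and none higher in peptidergic than in nonpeptidergic nociceptors. Mitochondrial ribosomal proteins, which make the mitochondrially encoded subunits, gave 48 higher and 2 lower of 75 in A-fibre subtypes (median 0.42) and 55 lower and none higher in peptidergic nociceptors (median -1.14). Among 23 carriers, channels and import proteins, 14 were higher and none lower in A-fibre subtypes, and 10 were lower and none higher in peptidergic nociceptors.

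Of the 7 mitochondrially encoded subunits tested, 3 were higher and none lower in peptidergic nociceptors (median 1.10), beside 19.7% and 18.5% of all genes, where 63 members were lower. For example, mt-Nd1, a complex I subunit, averaged 1414 ± 152 CPM in peptidergic and 554 ± 54.1 CPM in nonpeptidergic nociceptors (SD, n = 3 each; log2 fold change 1.35, SE 0.22, adjusted p = 3.73e-05). In A-fibre subtypes 3 of 7 rose, mt-Cytb (log2 fold change 0.51), mt-Co1 (0.52) and mt-Nd1 (0.54), beside 28.4% of all genes.

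Cytosolic ribosomal proteins, another large set of short genes, behaved like the members between the nociceptors but not between fibre classes. In peptidergic nociceptors 65 of 81 were lower and 1 higher than in nonpeptidergic ones (median -1.59), beside 18.5% and 19.7% of all genes. In A-fibre subtypes 18 were lower and 3 higher (median -0.20), beside 28.1% and 28.4%. Many of them have copies whose reads cannot be told apart.

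Regulators of mitochondrial gene expression were called higher in A-fibre subtypes more often than genes at large, and called lower about as often. Of 18 tested, 10 were higher and 5 lower in A-fibre subtypes, beside 28.4% and 28.1% of all genes. Esrrg, an estrogen-related receptor known to drive oxidative genes, averaged 388 ± 30.7 CPM in proprioceptors, 51.6 ± 9.80 CPM in Aβ Field-LTMRs, 4.96 ± 2.68 CPM in peptidergic and 1.05 ± 0.547 CPM in nonpeptidergic nociceptors (SD, n = 3 each). Its log2 fold change in A-fibre subtypes was 5.29 (SE 0.23, adjusted p = 3.71e-16). Esrrb (3.82), Esrra (2.55), and the coactivators Ppargc1b (2.35) and Ppargc1a (2.07) also rose. Nrf1, Gabpa and Yy1 fell, with log2 fold changes of -0.42, -0.47 and -0.49.

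Between the nociceptors, 3 of these 18 regulators were higher and 2 lower in peptidergic nociceptors, beside 19.7% and 18.5% of all genes. Neither count exceeded the share of all genes. Esrrg (log2 fold change 2.21), Ppargc1b (2.15) and Ppargc1a (1.13, adjusted p = 0.000225) were higher in peptidergic nociceptors. Polrmt, the mitochondrial RNA polymerase (log2 fold change -0.77), and Tfb1m, a mitochondrial rRNA methyltransferase (-0.78), were lower, as were 63 members. Ppargc1a averaged 25.3 ± 3.73 CPM in peptidergic and 11.6 ± 1.38 CPM in nonpeptidergic nociceptors (SD, n = 3 each), where Sdhb averaged 31.9 ± 2.14 CPM in peptidergic and 66.3 ± 7.80 CPM in nonpeptidergic nociceptors.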

How the data were processed

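The authors deposited raw counts per Ensembl gene, RPKM per gene, regularized log2 values (rlog) and an alignment summary that gives GC content in percent, mapping and exonic shares as a fraction, mapped reads as counts and 5' to 3' bias as a ratio. Amplification used a NuGEN kit before TruSeq library preparation, per the labels. The submitters' processing notes list mm10 and the tools FastQC 0.11.3, STAR, Cuffdiff, HTSeq 0.6.1 and DESeq2 1.14.1 without their roles. How the deposited RPKM were made is not given in the sources used here, and they need not follow the counts: Sdha in Aβ Field-LTMRs averaged 72.6 RPKM and 314 CPM, in Aβ RA-LTMRs 166 RPKM and 302 CPM.

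Tests used the deposited counts with edgeR 4.0.16 (R 4.3.3): filterByExpr by 8 groups left 17411 genes, then TMM, estimateDisp, a robust glmQLFit and glmQLFTest in 1 fit of all 26 libraries without covariates. A gene was called at a Benjamini-Hochberg adjusted p under 0.05 over all genes tested, with no minimum fold, and SE is the log2 fold change over the root of its F statistic. The common dispersion of 0.107 is a coefficient of variation of 0.327, so the spread between libraries rather than depth set the precision. CPM are counts scaled by TMM library size, with a prior count of 2 on the log2 scale. Genes were simulated for the A-fibre comparison (17411 genes, 200 changed). Of those raised by 0.5 and by 1 on the log2 scale, 36% and 72% were called. Of those lowered by as much, 22% and 60% were called, and there were 3 false calls in all. The simulation gave every subtype the same spread and drew the changed genes at random from all genes. Its shares and false calls therefore need not hold for the members or for these libraries.

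Alternatives were RLE scaling, DESeq2 1.42.0, no low-count filter, a log2 fold change of at least 1, limma 3.58.1 on log2(RPKM + 0.1) and on rlog, omission of mitochondrial genes with Gm26924, omission of each library, of Aδ-LTMR libraries 1 and 2, and of 5 libraries under 60% exonic, and as covariates replicate number, read-length class, exonic share, a satellite glia score and GC content. Omission of the 5 libraries and the GC covariate were added after the data were seen. Read-length classes follow the read lengths given in the summary: Aβ RA-LTMR libraries 1 to 3 and Aβ SA1-LTMRs formed one class, Aδ-LTMR libraries 1 and 2 another and the rest the third. These classes are tied to subtype. With them as covariate, the Aδ-LTMR level rests on library 3. The correction of Aβ SA1-LTMRs rests on differences among Aβ RA-LTMR libraries.

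Members, gene lists and tests were chosen with earlier results of these data known. The naming rule took tissue forms and their partners, complex II, the 3 largest and 3 smallest called changes per complex between A-fibre and other subtypes and per remaining comparison, the most abundant member of each complex and those that failed the filter. Other members were named after their values were seen, and 1 tested member is counted but not reported singly here. Shared windows are 50-base stretches of a member's transcripts found in transcripts of other genes. Transcripts came from GENCODE and promoters from RefSeq GRCm38.p6, and Python 3.11.15 was used with matplotlib 3.10.9, SciPy 1.17.1, pandas 2.3.3 and NumPy 2.4.6.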

Additional observations from a re-analysis of the deposited data

Results flagged for a closer look

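In the Aβ RA-LTMRs, the only subtype with more than 3 libraries, 45 named genes were checked for a single library far from the others (Dixon's ratio over 0.710 for 5 libraries). Of these, 3 were flagged, all in library 5. Chance flags about 1 in 20 checks, so 3 of 45 is near the number that chance gives. The members also moved together across libraries, so the 3 flags are not independent. Atp5o stood at 225 CPM in library 5, against 97.0 to 111 CPM in the other 4. Cox5a stood at 236 CPM in library 5, against 92.5 to 108 CPM in the others. Ndufb11, an accessory subunit of complex I, stood at 63.7 CPM in library 5, against 24.9 to 34.3 CPM in the others. This library also had the lowest exonic share (45.7%) and the highest Apoe of all 26 (2058 CPM), and their part in the 3 values was not tested.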

How the results depend on the processing

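A median was taken as reversed if it changed sign and moved by at least 0.380, the pooled SD of the library medians within subtypes. By this rule no median reversed except where Aδ-LTMR library 3 was left out, and of the 48 results on named members none reversed. A small median, as that of Aδ-LTMRs over Aβ-LTMRs, could change sign by less than this without being counted. Leaving out each of the 26 libraries gave 75 to 79 members called over the 8 subtypes, 68 to 71 higher in A-fibre subtypes (median 0.87 to 1.01) and 32 to 68 higher in proprioceptors (0.77 to 1.01). It gave 0 to 7 lower in C-LTMRs (-0.40 to -0.31), 46 to 66 lower in peptidergic nociceptors (-1.23 to -1.11), and 2 to 6 higher and 0 to 16 lower in Aδ-LTMRs (-0.37 to 0.25).

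The satellite glia covariate left 15 members higher in A-fibre subtypes, 9 in proprioceptors and 0 in Aδ-LTMRs, and 8 lower in peptidergic nociceptors, and 34 of the 48 named calls were lost. A log2 fold change of at least 1 left 34 higher in A-fibre subtypes, 30 in proprioceptors and 2 lower in C-LTMRs. Read-length class as a covariate gave 13 higher in proprioceptors (median 0.46), 1 higher and 17 lower in C-LTMRs, and 0 higher in Aδ-LTMRs. These classes are tied to subtype, so the fit cannot tell read length from subtype, and the cause was not tested.

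Members lower in C-LTMRs numbered 1 with no filter, 2 with limma on RPKM and 10 without the 5 libraries under 60% exonic. Members higher in Aδ-LTMRs numbered 5 with no filter and with limma on RPKM, 6 without Aδ-LTMR libraries 1 and 2 (median 0.61) and 10 without the 5 libraries, and members lower 1 with DESeq2 and with both limma fits and 3 without the 5 libraries. DESeq2 gave 1 member higher in peptidergic nociceptors, and limma on rlog a median of -0.77.

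With replicate number as a block, 68 members were higher in A-fibre subtypes, 65 in proprioceptors, 6 higher and 1 lower in Aδ-LTMRs, and 11 lower in C-LTMRs and 66 in peptidergic nociceptors. Of 84 pairs of same-numbered libraries 4 had deviations correlated over 0.1 (median r 0.0015, highest 0.239). Of 168 pairs with other numbers 5 did (median r 4.8e-05, highest 0.194). Whether same-numbered libraries shared a batch cannot be told from these correlations.

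Pools of few libraries, amplification, copies that share reads, transcript length and glial RNA limit these values. For Cox4i2, Cox6b2 and Cox7b2, which rest on few counts, depth also limits the fold change.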
